A study of Mus musculus with 6 samples.

Results

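The 2′-5′-oligoadenylate synthetase (OAS) family was followed in C2C12 cells, a mouse myoblast line that forms myotubes when serum is withdrawn. Its 8 genes with a transcript in the deposited table were Oas1a, Oas1b, Oas1c, Oas1g, Oas2, Oas3, Oasl1 and Oasl2. They were taken as the listed genes of this family by name, and make up 8 of the 11835 genes and 15 of the 24023 transcripts measured. RNA was sequenced from 3 siNC cultures, which received NC siRNA, and 3 siCNN3 cultures, which received CNN3 siRNA, the RNA interference reagent against calponin 3, an actin-binding protein. All 6 cultures received an siRNA duplex and were moved to medium with 2% horse serum for differentiation, and their labels call the cells mouse myotube. No untransfected culture was analysed here and the sources used here do not say which CNN3 siRNA was sequenced, so that effects of the siRNA and of lower Cnn3 cannot be told apart. Values are FPKM, or fragments scaled for transcript length and library size, summed over the transcripts of a gene.

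OAS enzymes bind double-stranded RNA and then join ATP into short 2′-5′-linked oligoadenylates (2-5A). 2-5A is a second messenger of the antiviral response, which slows protein synthesis and virus growth. The genes are textbook targets of interferon, whose signal reaches promoters through transcription factors that bind the interferon-stimulated response element (ISRE). Mice carry many copies of Oas1, along with Oas2, Oas3 and the OAS-like genes Oasl1 and Oasl2.

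Cnn3, the targeted gene, had 62.8, 61.4 and 62.8 FPKM in the siNC libraries, in the order of their replicate numbers, and 19.04, 39.2 and 25.6 FPKM in the siCNN3 libraries. The groups did not overlap, but Cnn3 was not called (log2 fold change -1.19, SE 0.242, adjusted p = 0.0669, limma). A gene was called when limma, fitted on log2(FPKM + 1) over 11593 genes, gave an adjusted p below 0.05, and all fold changes are on that scale, where the added 1 shrinks the change of low genes. One library stood apart, siNC replicate 1, with 2131 transcripts listed at 0, where the other 5 had 978 to 1333, and the lowest sum of FPKM. Of 12 muscle markers, 12 had a listed transcript, and their summed level was 162 to 187 FPKM in siNC and 138 to 146 FPKM in siCNN3. Most of it was Des, which encodes desmin, at 113 to 125 FPKM in siNC, while the differentiation markers Myog (1.23 to 3.07 FPKM), Myh3 (1.96 to 3.04 FPKM) and Mymk (1.29 to 2.71 FPKM) were low in siNC. Of 11 tested, 1 was called lower (Myh3, embryonic myosin heavy chain, log2 fold change -1.38, adjusted p = 0.0193, limma), 6 were lower at an unadjusted p below 0.05 (6.14% of all tested genes) and 1 was higher (9.94%), and in 7 every siCNN3 library lay under every siNC library (9.35%). The part of this shift in the OAS values was not tested. Of 15 immune and endothelial markers, 2 had a listed transcript (Cd68 and Lyz2), with 0 called by limma, 0 at an unadjusted p below 0.05, and a sum of 4.72 to 10.2 FPKM in siNC and 2.81 to 4.04 FPKM in siCNN3, both genes being lower without overlap. The other 13, among them Ptprc, Csf1r and Pecam1, were not analysed here.

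OAS genes other than Oasl2 were near or below 1 FPKM in most siNC libraries and reached up to 93.0 FPKM after transfection of CNN3 siRNA. Oasl2 had 0.929 to 12.3 FPKM in siNC and up to 118 FPKM in siCNN3. Called higher were 6 of the 8 genes, Oas1a, Oas1g, Oas2, Oas3, Oasl1 and Oasl2, and 0 were called lower. Over all tested genes, 1.73% were called higher and 0.336% lower. Oas1b and Oas1c were not called. In 7 of the 8 genes, all but Oas1b, every siCNN3 library exceeded every siNC library, as did 13.8% of all tested genes. The log2 fold change was above 0 in 8 of 8, with a median of 4.01, compared with 0.03 over all tested genes. Of the 8 genes, 6 had a siNC mean below the 0.5 FPKM filter and were tested because of their siCNN3 values, so a difference was built into their being tested and these counts are given as a description. For groups of 3 that do not overlap, the two-sided exact permutation p is 0.1, the smallest this design allows. Since RNA came from whole cultures, more cells expressing a gene and more RNA per cell cannot be told apart. The labels do not say whether the replicates were separate experiments, so that p-values measure the spread between these libraries, which may be technical.

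**Figure D1:**
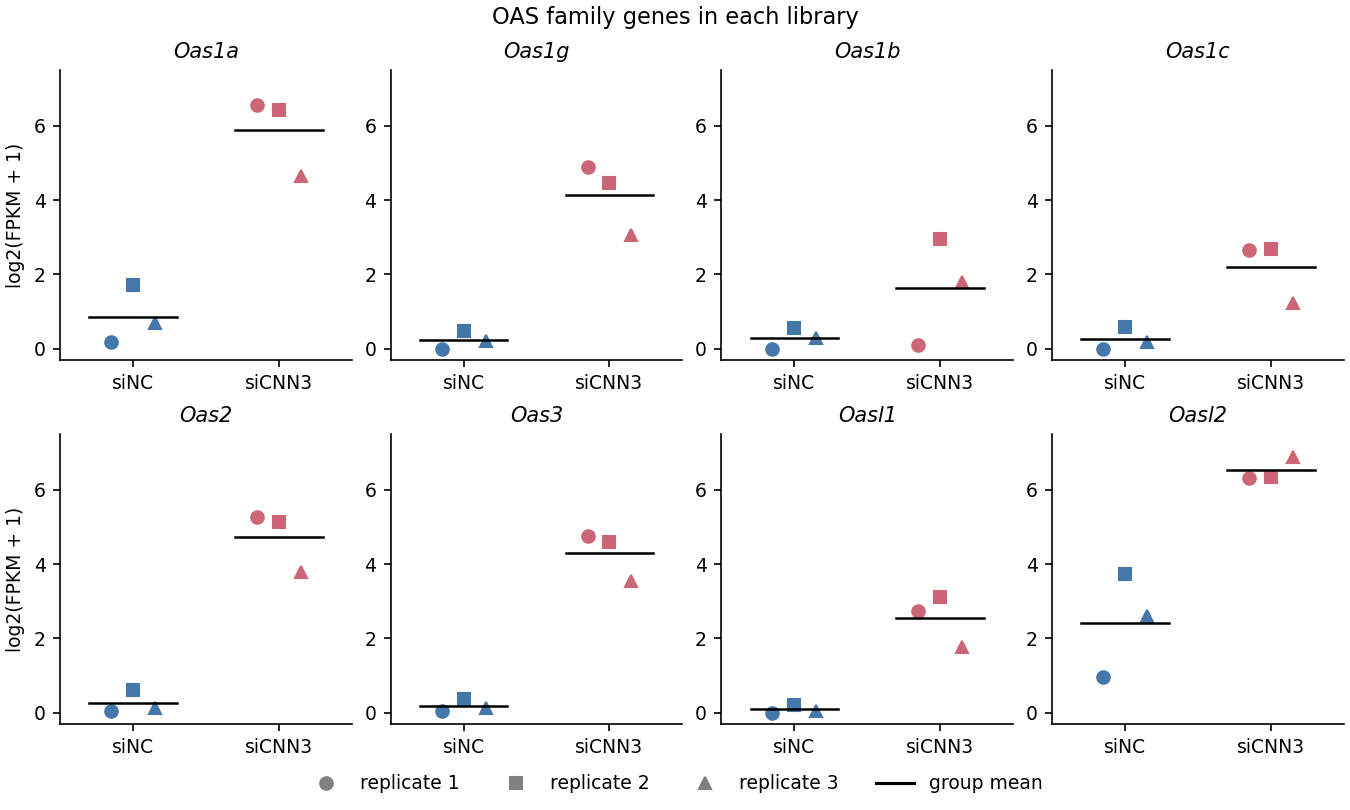
Level of each OAS gene as log2(FPKM + 1) on the vertical axis, with 3 siNC libraries (blue) and 3 siCNN3 libraries (red). Marker shape gives the replicate number and the black line the group mean of the log2 values. The groups overlap only for Oas1b, and siNC replicate 2 is the highest siNC library in all 8 panels.

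The Oas1 copies Oas1a and Oas1g encode enzymatically active synthetases of the same type and lie close to each other on chromosome 5 (GRCm38). Oas1a spans 120896256 to 120907521 and Oas1g spans 120876142 to 120887613, both on the minus strand. Their promoters carry the same run of 16 bases, shown because it holds a pair of overlapping matches to the core of the ISRE, searched as GAAA, any 2 bases and GAAA. The stretches below run from 130 bases before the RefSeq transcript start to 20 bases from it, on the minus strand of GRCm38.p6, with this run in capitals.
Oas1a, chr5:120907506-120907655: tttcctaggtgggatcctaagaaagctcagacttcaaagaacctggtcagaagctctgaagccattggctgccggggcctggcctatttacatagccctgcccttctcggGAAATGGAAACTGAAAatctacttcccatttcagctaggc
Oas1g, chr5:120887594-120887743: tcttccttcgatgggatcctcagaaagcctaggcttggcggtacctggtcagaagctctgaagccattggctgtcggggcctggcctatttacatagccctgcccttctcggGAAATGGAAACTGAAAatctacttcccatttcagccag
The run begins 20 bases before the start in Oas1a and 18 bases before it in Oas1g. Aligned at the run without gaps, 157 of 168 bases (93.5%) were the same in both. Searched on both strands, the ISRE core was found in 3.44% of the 32851 RefSeq promoter windows of 300 bases, in 3.79% of the 9074 tested genes with a window, and in 38 of the 153 (24.8%) called higher. The letters of the interferon-gamma activated site, searched as TTC, any 3 bases and GAA, which read the same on both strands, were in 8.30% of all windows, in 8.29% of the tested genes with a window, in 20 of the 153 called higher (13.1%) and, among the OAS genes, in Oas1a, 98 bases before its start. A match of letters describes the sequence and does not show that a factor binds there.

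In siNC, Oas1a stood at 0.129, 2.27 and 0.617 FPKM by replicate number, a mean of 1.00 ± 1.12 FPKM (SD, n = 3). After CNN3 siRNA it was listed at 93.0, 85.3 and 24.2 FPKM, a mean of 67.5 ± 37.7 FPKM (SD, n = 3). The lowest siCNN3 library was 10.7 times the highest siNC library, and siCNN3 replicate 3 stood well below replicates 1 and 2. Its log2 fold change of 5.02 (SE 0.591, 95% interval 3.62 to 6.42, adjusted p = 0.0144, limma) was the largest in the family and rank 8 of all tested genes. That order turned with a pseudocount of 0.1, which gave 6.69 for Oas2, 6.49 for Oas3 and 6.31 for Oas1a. Oas1g had lower siCNN3 levels and the same order of libraries. Its values were of 0, 0.399 and 0.147 in the siNC libraries and 28.5, 21.2 and 7.39 FPKM in the siCNN3 libraries. The groups were far apart, and the log2 fold change was 3.91 (SE 0.450, 95% interval 2.85 to 4.98, adjusted p = 0.0137, limma). How reads were divided between these neighbours is uncertain. Of the 50-base words of transcript Oas1a-201, 56.9% also occur in another OAS transcript, mostly Oas1g-201, and for Oas1g-201 the share is 54.7%. Summing the pair removes that division. The sum was 0.129, 2.67 and 0.764 FPKM with NC siRNA and 121, 107 and 31.5 FPKM with CNN3 siRNA, with a log2 fold change of 5.28 (SE 0.608, adjusted p = 0.0138, limma). No other OAS transcript shared more than 1.35% of its 50-base words. Oasl1, Oas1c and Oas2 overlap annotated genes on the opposite strand (Gm13822, Gm43069 and Gm43068), and as the sources used here do not say whether strand was used in counting, reads of these pairs cannot be told apart.

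Oas1b and Oas1c lie head to head, with 121 bases between their annotated starts. Oas1b spans 120812635 to 120824163 on the plus strand and is annotated as a polymorphic pseudogene. It is known as a flavivirus resistance gene that carries a premature stop codon in many laboratory strains. Oas1c, a further Oas1 copy, spans 120800194 to 120812514 on the minus strand. Between both starts lies the same run of 16 bases as in Oas1a and Oas1g, at 120812613 to 120812628, printed because it lies upstream of both genes. It reads in the direction of Oas1b, beginning 22 bases before that gene's annotated start, and appears as its reverse complement in the promoter of Oas1c. Capitals mark the run on the strand of each gene.
Oas1b, chr5:120812595-120812654, plus strand: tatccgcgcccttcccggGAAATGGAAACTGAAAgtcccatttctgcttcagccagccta
Oas1c, chr5:120812495-120812644, minus strand: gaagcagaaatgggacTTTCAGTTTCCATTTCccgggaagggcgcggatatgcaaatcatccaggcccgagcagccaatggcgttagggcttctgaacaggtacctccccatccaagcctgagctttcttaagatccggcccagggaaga
Levels of both genes were low. Oas1c had values of 0, 0.482 and 0.125 in the siNC libraries and 5.25, 5.46 and 1.33 FPKM in the siCNN3 libraries. These groups did not overlap, but with a log2 fold change of 1.94 (SE 0.412, 95% interval 0.96 to 2.92) Oas1c was not called (adjusted p = 0.0751, limma). Leaving out siCNN3 replicate 3, its lowest siCNN3 library, gave a log2 fold change of 2.42 and a call (adjusted p = 0.00442, limma). Removing the lowest library of the higher group must raise the fold change. In that fit 443 of all genes were called higher, where 200 were with all 6 libraries. Oas1c was called in 1 of the 6 fits that each left out a library. Oas1b had values of 0, 0.472 and 0.223 in the siNC libraries and 0.0715, 6.80 and 2.46 FPKM in the siCNN3 libraries. Here siCNN3 replicate 1 lay within the range of siNC, although it was the highest or close to the highest siCNN3 library for Oas1a and Oas1c. The log2 fold change of Oas1b was 1.34 (SE 0.659, 95% interval -0.23 to 2.90, adjusted p = 0.376, limma), with a two-sided exact permutation p of 0.3.

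Oas2 and Oas3 encode the larger synthetases, built from repeated OAS units, and Oas3 is known to respond to long double-stranded RNA. Oas2 spans 120730333 to 120749853 and Oas3 spans 120753098 to 120777661, both on the minus strand of chromosome 5. The promoter of Oas3 holds 1 match to the ISRE core, 75 bases before its start, in letters that differ from those of the Oas1 copies and are shown in capitals.
Oas3, chr5:120777640-120777789, minus strand: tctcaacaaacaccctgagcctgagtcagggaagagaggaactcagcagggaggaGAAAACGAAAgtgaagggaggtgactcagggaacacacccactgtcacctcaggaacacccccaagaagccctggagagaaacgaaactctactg
Oas2 stood at 0.0306, 0.517 and 0.0882 FPKM in siNC, a mean of 0.212 ± 0.266 FPKM (SD, n = 3). In siCNN3 it was listed at 37.6, 34.0 and 12.9 FPKM, a mean of 28.2 ± 13.4 FPKM (SD, n = 3). The lowest siCNN3 library was 24.9 times the highest siNC library. Its log2 fold change was 4.48 (SE 0.402, 95% interval 3.52 to 5.43, adjusted p = 0.00886, limma). Of its 3 listed transcripts, Oas2-201 held 82.8% of the siCNN3 level, with 29.9, 28.6 and 11.5 FPKM there. Oas3 behaved alike, at 0.0258, 0.297 and 0.0819 FPKM in the control group, a mean of 0.135 ± 0.143 FPKM (SD, n = 3). In siCNN3 it was listed at 26.3, 23.3 and 10.6 FPKM, a mean of 20.1 ± 8.30 FPKM (SD, n = 3). The lowest siCNN3 library was 35.8 times the highest siNC library, the widest such gap in the family. With a log2 fold change of 4.13 (SE 0.330, 95% interval 3.35 to 4.91, adjusted p = 0.00473, limma), Oas3 had the smallest SE and adjusted p of the 8 genes. Its transcript Oas3-201 held 90.3% of the siCNN3 level and Oas3-202 the rest.

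The OAS-like genes lie apart from the other members on chromosome 5, Oasl2 from 114896936 to 114912234 and Oasl1 from 114923240 to 114937915, both on the plus strand. Oasl1 makes no 2-5A and is known to restrain translation of Irf7 mRNA, while mouse Oasl2 keeps synthetase activity. Neither the ISRE core nor the interferon-gamma activated site was found with these letters in their promoter windows. Oasl1 had values of 0, 0.154 and 0.0340 in the siNC libraries and 5.65, 7.64 and 2.40 FPKM in the siCNN3 libraries. It was therefore the lowest of the called genes, yet the groups did not overlap, and its log2 fold change was 2.45 (SE 0.337, 95% interval 1.65 to 3.25, adjusted p = 0.0220, limma). Transcript Oasl1-201 was listed at 0 in all 3 siNC libraries and at 2.50, 3.18 and 0.0182 FPKM in siCNN3, so that replicate 3 had nearly all of its Oasl1 level in Oasl1-202, which was listed at 2.39 FPKM there.

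Oasl2 had the highest level of the family in each siNC library, at 0.929, 12.3 and 5.03 FPKM in replicates 1, 2 and 3, a mean of 6.09 ± 5.77 FPKM (SD, n = 3). In siCNN3 it was listed at 78.8, 80.8 and 118 FPKM, a mean of 92.6 ± 22.3 FPKM (SD, n = 3). Here siCNN3 replicate 3 was the highest library, whereas it was the lowest siCNN3 library for 6 of the other 7 genes. The log2 fold change of Oasl2 was 4.10 (SE 0.641, 95% interval 2.58 to 5.62, adjusted p = 0.0321, limma), and the lowest siCNN3 library was 6.40 times the highest siNC library. Transcript Oasl2-201 held 81.7% and the short Oasl2-207 held 13.7% of the siCNN3 level. With each transcript tested on its own, the adjusted p of Oasl2-201 was 0.0812 and that of Oasl2-207 was 0.0856 (limma), neither of which was called. In that test, 5 of the 15 OAS transcripts were called higher, compared with 0.462% of all 21658 tested, namely Oas1a-201, Oas1g-201, Oas2-201, Oas3-201 and Oasl1-202.

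Libraries of a group differed for the family as a whole. The FPKM of the 8 genes, by replicate number, summed to 1.11, 16.9 and 6.35 with NC siRNA and to 275, 265 and 180 with CNN3 siRNA. Replicate 2 was the highest and replicate 1 the lowest siNC library for 8 of the 8 genes, and the values of 0 of Oas1b, Oas1c, Oas1g and Oasl1 were all in siNC replicate 1, the library with the most transcripts listed at 0. In siCNN3, replicate 3 was the lowest siCNN3 library for 6 of them. Relative to the mean of siCNN3 replicates 1 and 2, replicate 3 ranged from 24.9% for Oas1c to 148% for Oasl2. The makeup of the sum shifted as well. Oasl2 made up 83.4%, 72.9% and 79.3% of the sum in siNC, 28.6% and 30.5% in siCNN3 replicates 1 and 2, and 65.9% in siCNN3 replicate 3. Oas1a made up 11.6%, 13.4% and 9.71% in siNC and 33.8%, 32.3% and 13.4% in siCNN3. In siCNN3 replicate 3, Oas1a was thus at the upper end of its siNC shares, while Oasl2 was below its siNC shares and Oas2, at 7.17%, was above its siNC range of 1.39% to 3.06%. By mean siCNN3 level the order was Oasl2, Oas1a, Oas2, Oas3, Oas1g, Oasl1, Oas1c and Oas1b. The ranges of the 3 siCNN3 libraries overlapped between every gene and the next in that order.

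**Figure D2:**
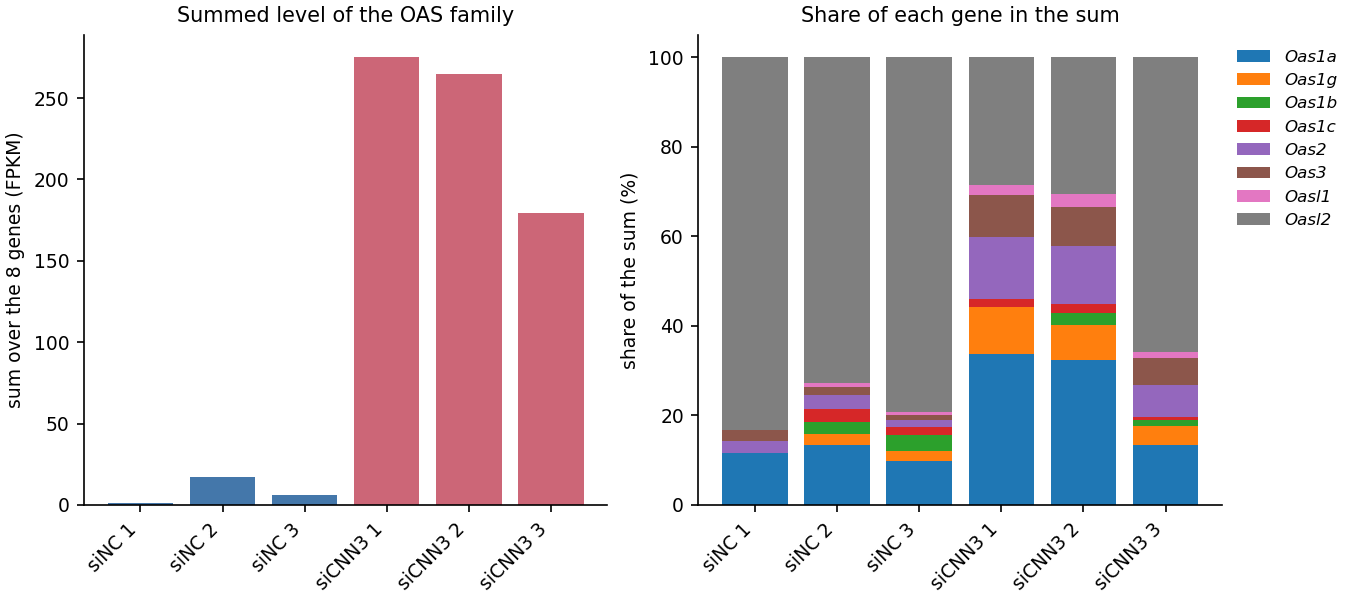
Left, sum of the FPKM of the 8 OAS genes in each library. Right, share of each gene in that sum as a percentage. The siNC sums lie between 1.11 and 16.9 FPKM and the siCNN3 sums between 180 and 275 FPKM, and Oasl2 holds the largest share in all but siCNN3 replicates 1 and 2.

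Calls of most OAS genes depended on single libraries, as did the number of calls over all genes. When each of the 6 libraries was left out in turn, Oas3 was called in 6 of 6 fits and Oas2 in 5, with an adjusted p of 0.0579 without siNC replicate 3 (limma). Oas1g and Oasl2 were called in 3 fits, Oas1a and Oasl1 in 2, Oas1c in 1 and Oas1b in 0. On the log2 scale the fold changes lay between 4.68 and 5.63 for Oas1a, between 3.36 and 4.75 for Oasl2 and, with the widest range, between 0.66 and 2.09 for Oas1b. Without siNC replicate 1, 3 of the 8 genes were called (Oas2, Oas3 and Oasl2), while Oas1a, Oas1g and Oasl1 had log2 fold changes of 4.68, 3.80 and 2.41 and adjusted p of 0.0556, 0.0575 and 0.0811 (limma). In that fit 71 of all genes were called higher, where 200 were with all 6 libraries. Without siNC replicate 2, 6 were called, and 150 of all genes were called higher. Without siNC replicate 3 a single gene, Oas3, was left, and 16 of all genes were called higher. Leaving out siCNN3 replicate 1 left 3 called OAS genes, with 39 of all genes called higher. Leaving out siCNN3 replicate 2 left 2, with 28 of all genes called higher. Without siCNN3 replicate 3, 7 were called, and 443 of all genes were called higher. Oas1b, the only member whose groups overlap, had a positive fold change in all 6 fits. For the other 7 the sign was fixed in advance, because every siCNN3 library exceeded every siNC library.

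**Figure D3:**
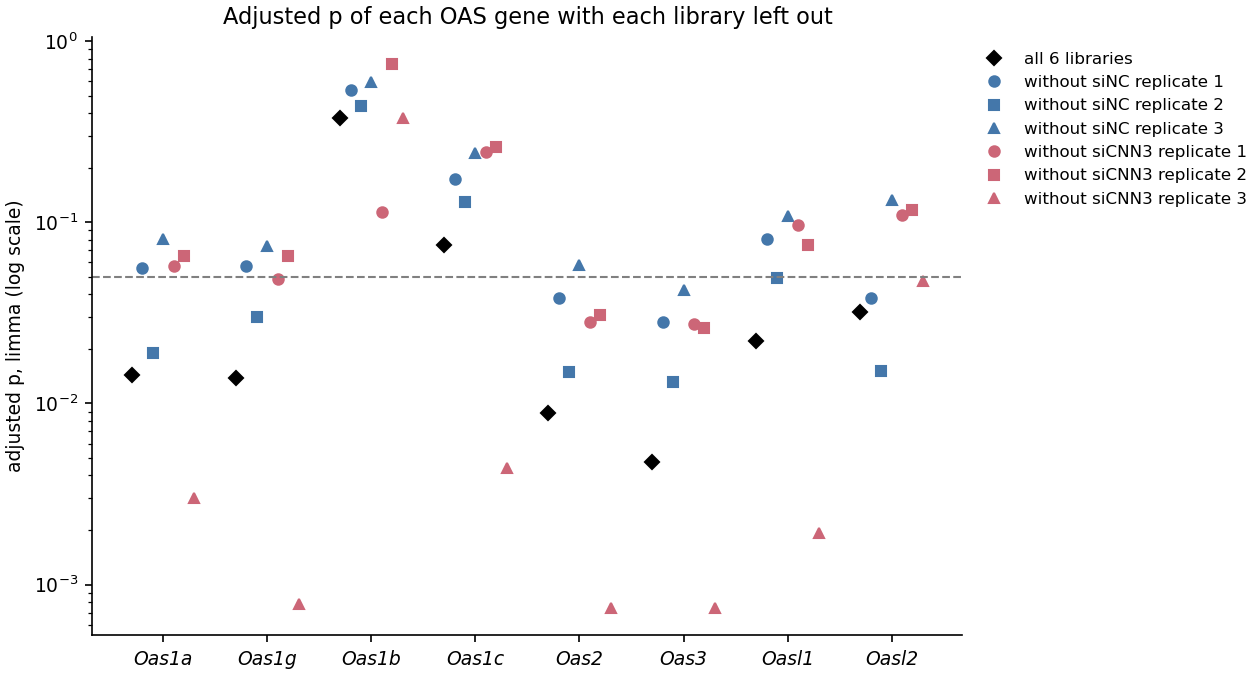
Adjusted p from limma (log scale) of each OAS gene with all 6 libraries (black) and with each siNC (blue) or siCNN3 (red) library left out. Points below the dashed line at 0.05 are calls. Oas3 stays below the line in all 6 reduced fits and Oas1b above it in all of them.

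Genes that act with the synthetases were examined next, and the 2 described here did not pass the test. Abce1, a ribosome recycling factor also known as an inhibitor of the 2-5A pathway, had values of 27.1, 39.98 and 36.8 in the siNC libraries and 50.7, 48.4 and 33.9 FPKM in the siCNN3 libraries (log2 fold change 0.34, SE 0.209, adjusted p = 0.470, limma). Pde12, which degrades 2-5A, had values of 3.32, 3.31 and 3.73 in the siNC libraries and 4.17, 3.99 and 3.68 FPKM in the siCNN3 libraries (log2 fold change 0.15, SE 0.138, adjusted p = 0.632, limma). In both genes the groups overlapped. Of these 2 genes, 0 were called by limma with or without its trend or moderation, and 0 had an unadjusted p below 0.05. The Oas1 copies Oas1d, Oas1e, Oas1f and Oas1h were not analysed here.

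Other sensors of double-stranded RNA and cytosolic nucleic acid, with adaptors, nucleases and further genes related to them, were examined as a list of 20 genes. They are called sensor-list genes below, although not all of them are sensors. Of the 20, 8 were called higher and 0 lower, where 1.73% and 0.336% of all tested genes were, and the median of their log2 fold changes was 1.48. The groups did not overlap in 11 higher genes of this list (13.8% of all tested genes) and in 1 lower, Mavs (9.35%). Zbp1, a sensor of Z-form nucleic acid, had values of 2.02, 5.81 and 4.71 in the siNC libraries and 146, 137 and 80.9 FPKM in the siCNN3 libraries. Its log2 fold change of 4.60 (SE 0.355, adjusted p = 0.00473, limma) was within the range of the OAS genes. The next in size among the called genes were Dhx58, a regulator of RIG-I-like receptors (3.33, SE 0.576), Trex1, a DNA exonuclease (2.99, SE 0.352), Ifih1, the receptor MDA5 (2.80, SE 0.509), and Pnpt1, a mitochondrial exoribonuclease (2.44, SE 0.316), as log2 fold changes. The count of 8 became 5, 9 and 2 without siNC replicates 1, 2 and 3, and 2, 1 and 10 without siCNN3 replicates 1, 2 and 3. In the same order, 71, 150 and 16, and 39, 28 and 443 of all genes were called higher. Of 19 interferon signalling genes, 2 were called higher and 0 lower, beside the same shares of all tested genes, and the median of the log2 fold changes was 0.32. In 8 of the 19 the siCNN3 libraries were all above siNC (13.8% of all tested genes), and 9 were higher at an unadjusted p below 0.05 (9.94%). The 2 called genes were Irf7 (4.36, SE 0.665), a transcription factor for interferon genes, and Irf5 (1.73, SE 0.223), another factor of that family. This count was 1, 6 and 0 without siNC replicates 1, 2 and 3, and 0, 0 and 5 without siCNN3 replicates 1, 2 and 3.

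**Figure D4:**
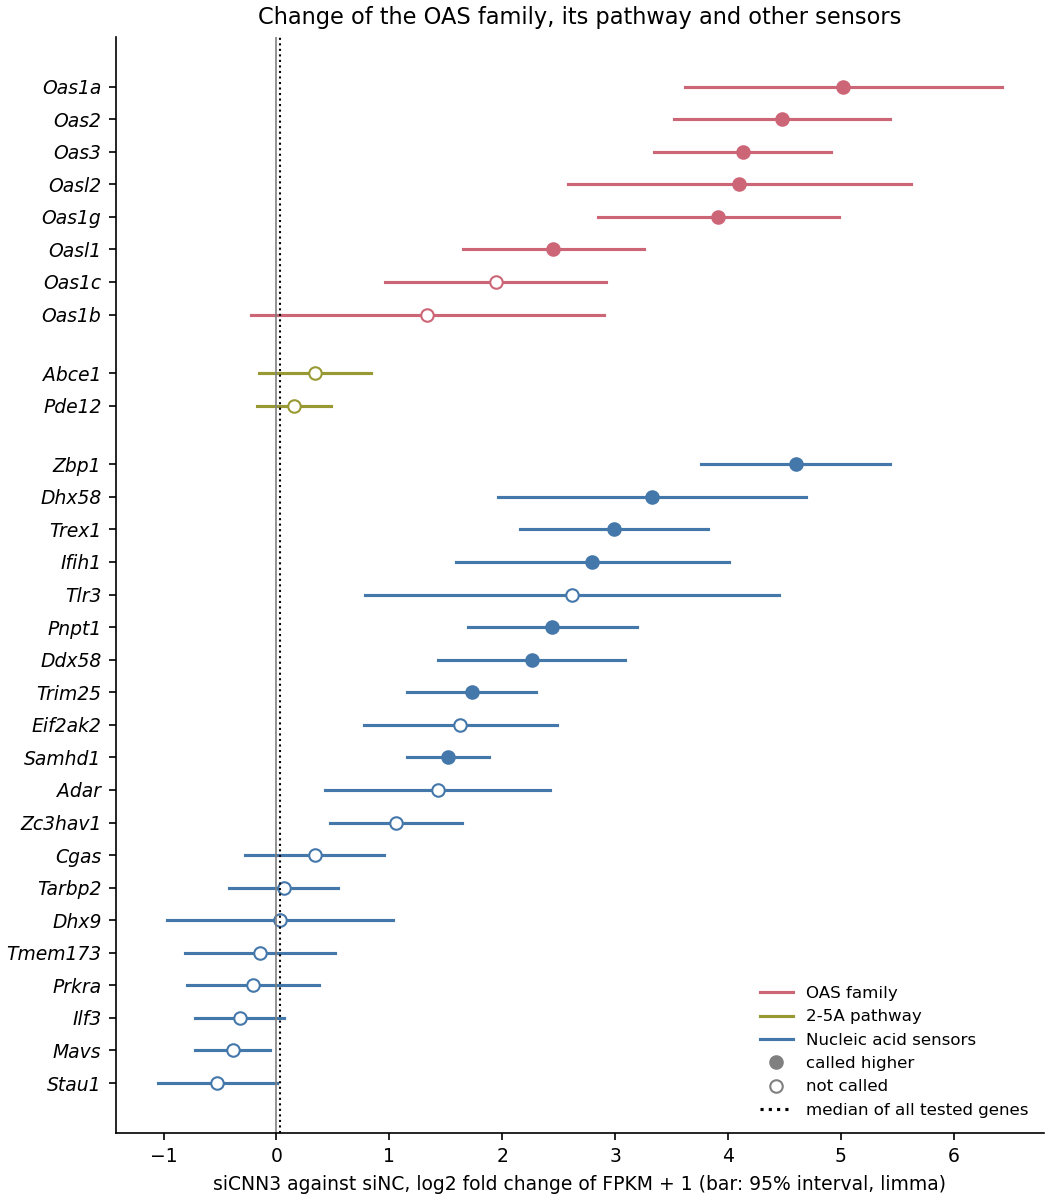
Log2 fold change of FPKM + 1 between siCNN3 and siNC for the OAS genes (red), the 2-5A pathway genes (olive) and the sensor-list genes (blue), with 95% intervals from limma. Filled points were called higher and open points were not. The 6 called OAS genes lie between 2.45 and 5.02, while Abce1 and Pde12 lie at 0.34 and 0.15.

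The OAS genes were set against other genes near them on chromosome 5. Within 300 kb of a member, 20 other genes were tested, 12 around Oasl1 and Oasl2 and 8 around the remaining members. Of these 20 neighbours, 0 were called by limma in either direction, while 0 higher and 1 lower had an unadjusted p below 0.05. Their median log2 fold change was -0.07. The siCNN3 libraries were all above siNC in 2 of them and all below in 2, where 13.8% and 9.35% of all tested genes were. Flanking Oasl1 at 4.24 kb, 2210016L21Rik had a log2 fold change of 0.29 (SE 0.142, adjusted p = 0.365, limma). On the other side, 73.5 kb from Oasl2, 1500011B03Rik was at -0.16 (SE 0.191, adjusted p = 0.731, limma). Beside the larger group, Ddx54, 102 kb from Oas2, was at 0.26 (SE 0.176, adjusted p = 0.529, limma). Ptpn11, 223 kb beyond Oas1a, was at -0.02 (SE 0.180, adjusted p = 0.975, limma).

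**Figure D5:**
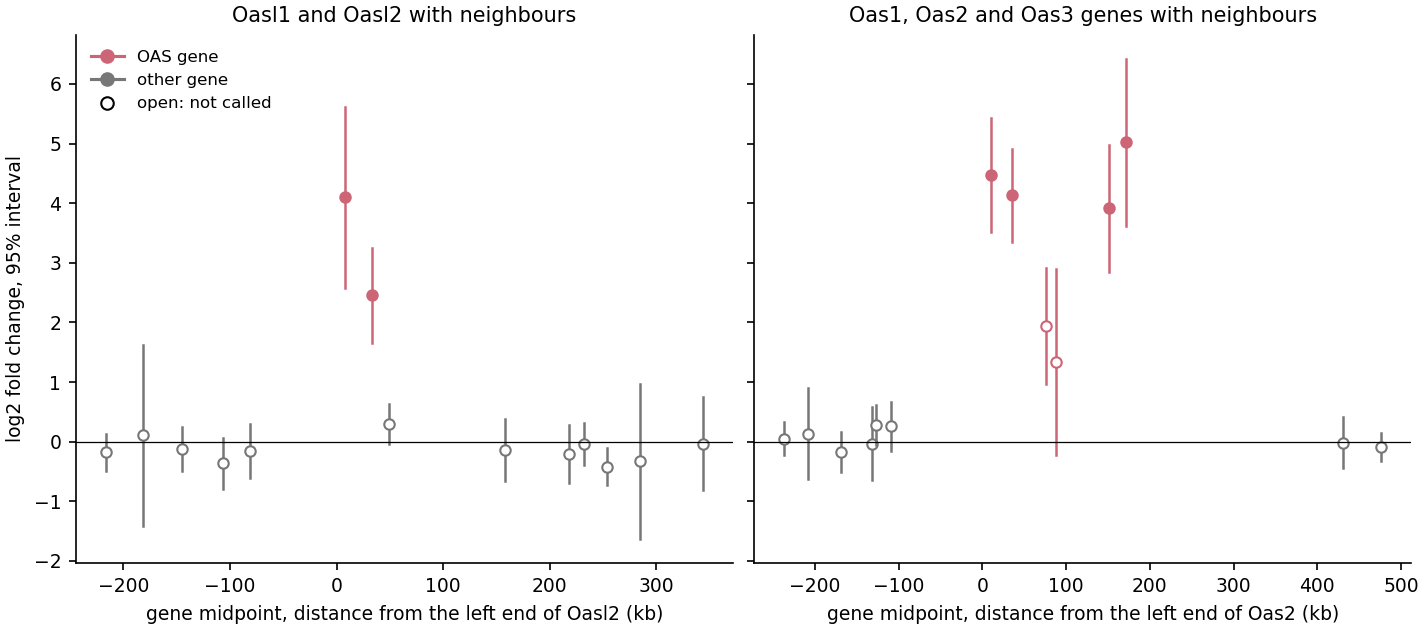
Log2 fold change between siCNN3 and siNC, with 95% intervals from limma, of the OAS genes (red) and other tested genes within 300 kb (grey), against the distance in kb of the gene midpoint from the left end of Oasl2 (left) or Oas2 (right). Filled points were called. The red points lie between 1.34 and 5.02, and the grey ones between -0.42 and 0.29.

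The genes outside the family with the most similar pattern were found by the Pearson correlation, over the 6 libraries, of log2(FPKM + 1) with the mean of the 8 standardised members. They were Cops6 (r = 0.997), Tap1 (0.996), Rnf25 (0.996), Ifi202b (0.995) and Tent5a (0.994). Because the 6 libraries fall into 2 groups, this measure reflects mostly the group difference and disregards its size, which was 0.20 for Cops6 and 3.03 for Tap1 on the log2 scale. With a pseudocount of 0.1, 1 of the 5, Tent5a, remained. The members themselves ranged from 0.681 for Oas1b and 0.930 for Oasl2 to 0.992 for Oas1a. Each member is part of the mean it was correlated with, which raises its r, so these values cannot be set against those of outside genes.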

How the data were processed

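RNA of 3 siNC and 3 siCNN3 cultures was sequenced. The authors deposited FPKM for 24023 Ensembl transcripts. The submitters' processing notes name Bowtie 0.12.2 and the builds mm8 and mm10 without a role, and the program that made the FPKM is not given in the sources used here. Without read numbers depth is unknown and counting error cannot be stated. A value of 0 may be an estimate that failed: 235 transcripts had 0 in one library while a replicate of it had at least 10 FPKM.

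Transcripts were matched to GENCODE vM21 (GRCm38) without their version (23949 matched) and summed by gene symbol. The filter kept genes averaging 0.5 FPKM or more over all libraries, and limma 3.58.1 in R 4.3.3 tested their log2(FPKM + 1) (trend, Benjamini-Hochberg adjustment, threshold 0.05), after the script was tested on simulated data. Promoters are from RefSeq (GRCm38.p6), from 250 bases before to 50 after the start, for 6 of 8 members. Oas1b, shown from the window of Oas1c, and Oas2 had no entry. Members and lists were chosen with earlier results of these data known, and 2 genes that are not reported here were taken out of the lists. Named are all members, Cnn3, Abce1, Pde12, up to 5 called genes per list, the nearest neighbours and the 5 genes most alike; other genes named were chosen after their values were seen. Alternatives were a pseudocount of 0.1, no filter or 5 FPKM, median-of-ratios or quantile scaling, the replicate number as a block, no trend, no moderation, each library left out, and transcripts in place of genes. Summing Oas1a and Oas1g was added after the data were seen. Python 3.11.15 was used for tables.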

Additional observations from a re-analysis of the deposited data

How the results depend on the processing

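The replicate numbers share no stated batch. Deviations from the group means correlated by -0.28, 0.31 and -0.02 for numbers 1, 2 and 3, and not every library correlated best with its own number. With the replicate block, 5 OAS genes were called (Oasl2 had an adjusted p of 0.0533 from limma). The block gave 4 sensor-list genes in place of 8 and 0 interferon signalling genes in place of 2. Calls over all genes fell from 200 higher and 39 lower to 62 and 6. An unmoderated linear model called 0 OAS genes, 0 sensor-list genes and 0 interferon signalling genes, and 0 genes of all tested. Leaving out single libraries gave 1 to 7 called OAS genes, 1 to 10 sensor-list genes and 0 to 6 interferon signalling genes. Under a pseudocount of 0.1, 5 OAS genes were called, without Oasl2 (adjusted p = 0.0511, limma), 6 sensor-list genes and 1 interferon signalling gene. With that pseudocount 187 of all genes were called higher. No filter, median-of-ratios scaling, quantile normalization and limma without trend called 6 OAS genes each. Sensor-list genes called were 7 without the filter or without the trend, and 8 under either scaling. Over all genes, 176 were called higher without the filter and 164 without the trend. With a filter at 5 FPKM, Oas1b, Oas1c and Oasl1 were not tested and the other 5 were called. Of the 8181 genes tested there, 191 were called higher. Of all calls, the split was 218 higher and 63 lower under median-of-ratios scaling and 199 and 93 after quantile normalization. No fold change of an OAS gene changed direction under any alternative run. For 7 of the 8 genes the groups did not overlap, so that the pseudocount, the filter and leaving out a library could not change it. Of the 2-5A pathway genes and the neighbours, 0 were called higher under the alternatives run for them, which did not include transcripts in place of genes. The cause of these differences was not tested. The depth is unknown, and the siNC values of all OAS genes but Oas1a and Oasl2 averaged below 0.5 FPKM. How far depth limits the precision of such low values cannot be stated.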

Other observations

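Further members of the lists, chosen after their values were seen, had groups that did not overlap but were not called. Usp18, a feedback inhibitor of interferon signalling, had values of 0.412, 17.3 and 2.91 in the siNC libraries and 170, 167 and 66.8 FPKM in the siCNN3 libraries (log2 fold change 4.74, adjusted p = 0.0525, limma). It shares with the OAS genes, and with Ifnb1, Eif2ak2 and Irf1 below, that siNC replicate 2 was the highest siNC library. Ifnb1, which encodes interferon beta, had values of 0, 0.225 and 0 in the siNC libraries and 6.60, 7.78 and 1.01 FPKM in the siCNN3 libraries (adjusted p = 0.0976, limma). Eif2ak2, the double-stranded RNA-dependent kinase PKR, had values of 18.1, 50.6 and 34.1 in the siNC libraries and 111, 116 and 76.5 FPKM in the siCNN3 libraries (adjusted p = 0.0818, limma). In these 3 genes siCNN3 replicate 3 was the lowest of its group. It was the highest for Irf1, another transcription factor of interferon signalling, whose siCNN3 values of 40.6, 39.8 and 62.9 FPKM all exceeded those of siNC (adjusted p = 0.0586, limma).

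The level of Cnn3 and that of the OAS family did not follow the same order among siCNN3 libraries. Replicate 2 had the highest Cnn3 (39.2 FPKM) and an OAS sum of 265 FPKM, replicate 3 had 25.6 FPKM and a sum of 180 FPKM, and replicate 1 had 19.04 FPKM and a sum of 275 FPKM. In siNC, Cnn3 stayed between 61.4 and 62.8 FPKM while the OAS sum ranged from 1.11 to 16.9 FPKM. With 3 libraries a group, no relation between them was tested.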
